A study of Mus musculus with 26 samples.

Results

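Neurexins and their partners are the adhesion proteins that join the 2 sides of a synapse, and 8 of their genes were followed here in nuclear RNA of the mouse brain. They were chosen by name from the 27501 genes in the counts table: Nrxn2 and Nrxn3, which encode neurexins; Nlgn1, Nlgn2 and Nlgn3, which encode neuroligins; Lrrtm3 and Lrrtm4, which encode leucine-rich repeat transmembrane neuronal proteins; and Cntnap2, which encodes the neurexin-like protein Caspr2. All 8 were in the table and all 8 passed the filter on low counts in every comparison below. Further relatives and partners are summarised by list in a later paragraph, and the remaining neurexin, neuroligin and LRRTM genes are not analysed here.

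Neurexins sit mainly on the presynaptic membrane and are made as long alpha and short beta forms from separate promoters. Neuroligins and LRRTM proteins bind them across the cleft, with Nlgn1 found mostly at excitatory synapses, Nlgn2 at inhibitory synapses and Nlgn3 at both, while the LRRTM proteins act at excitatory synapses. Caspr2 belongs to the neurexin superfamily but is best known for gathering voltage-gated potassium channels beside the nodes of myelinated axons. Astrocytes are also known to make neuroligins, so none of these genes is a neuron-specific marker by definition.

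Whole brains were taken at an age of 6 to 12 weeks from 3 transgenic lines of mice, which all carry a fusion of green fluorescent protein with the ribosomal protein Rpl10a. The transgene Tg(Snap25-EGfp/Rpl10a)JD362Htz drives the fusion from Snap25 and served for neurons, Tg(Aldh1L1-EGfp/Rpl10a)JD130Htz drives it from Aldh1L1 and served for astrocytes, and Tg(Cnp-EGfp/Rpl10a)JD368Htz drives it from Cnp and served for oligodendrocytes, each on the B6.FVB background. From each line there were 4 libraries of sorted nuclei and 4 of presort nuclei, taken before the sort and, per the design text, from the same mice, with 2 females and 2 males in each group, and 2 further libraries held cytoplasm, from a male of the Aldh1L1 line (replicate 1) and a female of the Cnp line (replicate 2). No group lacked the transgene, and a sorted group holds whatever cells its driver marks across the whole brain.

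Levels are given in CPM, the usual scaling of counts to a library's total, and values of a group are listed in the order of replicate number, males before females. Differences given with a standard error (SE) are log2 fold changes, and a gene was called where its Benjamini-Hochberg adjusted p over all genes was under 0.05. The sorted groups carried the markers of their label. The summed level of 6 pan-neuronal markers was 5818 to 7802 CPM in sorted neurons, 1476 to 2399.8 CPM in sorted astrocytes and 499.8 to 2161 CPM in sorted oligodendrocytes, so pan-neuronal RNA was lower but not absent in both glial sorts. Sorted astrocytes held 20245 to 23806 CPM of 8 astrocyte markers, and sorted oligodendrocytes held 27923 to 37562 CPM of 8 oligodendrocyte markers. Sorted libraries had 134357 to 3239445 counts, presort libraries 147826 to 3274488 and cytoplasm libraries 3885312 and 4461568, so that the floor of 3 counts lay between 0.672 and 22.3 CPM. Sorted astrocyte replicate 30 was the shallowest of the sorted libraries, and its value for Lrrtm3 and for Lrrtm4 rested on 3 counts each. Sorted oligodendrocyte replicate 36 stood apart, with 7674 genes detected, against a median of 16315 over all sorted libraries. It was the single library of the 26 with 0 counts of the fluorescent protein's sequence. Its glutamatergic markers summed to 871 CPM, against 87.6, 45.8 and 107 CPM in replicates 10, 12 and 34. Other neuronal lists were not raised in it. Its pan-neuronal (499.8 CPM) and cerebellar granule cell sums (122 CPM) were the lowest of its group, and its GABAergic sum was 52.4 CPM. Calls on the 8 genes that turned on replicate 36, and their fold changes that it moved by over 1.5 times, are given with and without it. In bulk nuclei, fewer cells of a type and less RNA per cell cannot be told apart.

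The genes differ widely in size, and their start regions frame the values below. In GENCODE M21 (GRCm38) Cntnap2 spans 2245 kb (chr6:45059357-47304213, + strand), Nrxn3 1612 kb (chr12:88722876-90334935, +), Nlgn1 906 kb (chr3:25426215-26332460, −), Lrrtm4 791 kb (chr6:80018877-80810143, +), Lrrtm3 162 kb (chr10:63928472-64090277, −), Nrxn2 125 kb (chr19:6418731-6544169, +), Nlgn3 26.8 kb (chrX:101299168-101325963, +) and Nlgn2 14.7 kb (chr11:69823122-69837784, −). The start regions of the 4 genes that were called higher in neurons than in both glial types are shown, as RefSeq gives them for GRCm38.p6: 250 bases before to 50 after the start, on the gene's strand, with CG dinucleotides in capitals. For Nrxn3 the most upstream and the most downstream of its 3 listed starts are shown, because a gene-level count pools all of them. Lrrtm4 and Cntnap2 each have 2 listed starts, of which the upstream one is shown.
Nrxn3 chr12:88794254-88794553 (+): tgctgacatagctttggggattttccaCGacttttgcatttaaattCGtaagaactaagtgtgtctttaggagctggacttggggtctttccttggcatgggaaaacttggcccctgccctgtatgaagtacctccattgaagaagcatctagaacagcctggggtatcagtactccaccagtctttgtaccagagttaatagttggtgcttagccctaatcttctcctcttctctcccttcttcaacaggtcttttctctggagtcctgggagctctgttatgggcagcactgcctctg
Nrxn3 chr12:89812233-89812532 (+): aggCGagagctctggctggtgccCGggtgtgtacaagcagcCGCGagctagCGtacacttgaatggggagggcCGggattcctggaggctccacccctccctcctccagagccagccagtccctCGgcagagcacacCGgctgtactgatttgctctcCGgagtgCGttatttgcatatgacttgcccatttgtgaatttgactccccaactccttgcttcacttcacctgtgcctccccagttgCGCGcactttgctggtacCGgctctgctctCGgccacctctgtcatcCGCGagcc
Lrrtm3 chr10:64090206-64090505 (-): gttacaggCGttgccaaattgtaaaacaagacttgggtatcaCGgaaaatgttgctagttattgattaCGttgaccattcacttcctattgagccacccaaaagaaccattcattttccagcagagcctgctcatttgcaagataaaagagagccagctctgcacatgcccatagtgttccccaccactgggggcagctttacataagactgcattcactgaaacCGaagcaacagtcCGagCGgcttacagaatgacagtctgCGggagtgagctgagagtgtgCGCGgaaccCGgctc
Lrrtm4 chr6:80018627-80018926 (+): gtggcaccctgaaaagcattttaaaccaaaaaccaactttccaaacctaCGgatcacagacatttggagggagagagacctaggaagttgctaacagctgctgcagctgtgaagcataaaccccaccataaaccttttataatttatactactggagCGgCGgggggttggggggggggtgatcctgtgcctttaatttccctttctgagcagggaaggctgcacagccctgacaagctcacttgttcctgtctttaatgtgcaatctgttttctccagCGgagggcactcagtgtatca
Cntnap2 chr6:45059811-45060110 (+): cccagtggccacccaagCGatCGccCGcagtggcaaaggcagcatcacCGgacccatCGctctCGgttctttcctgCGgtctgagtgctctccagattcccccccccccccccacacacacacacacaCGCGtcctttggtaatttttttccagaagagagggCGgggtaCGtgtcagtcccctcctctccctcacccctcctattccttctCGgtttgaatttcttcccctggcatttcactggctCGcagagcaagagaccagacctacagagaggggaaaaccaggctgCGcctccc
The upstream Nrxn3 region held 2 CG dinucleotides and the downstream region 16, while the Lrrtm3 region held 10, the Lrrtm4 region 4 and the Cntnap2 region 14. The starts not shown held 6 in Nrxn3 (chr12:88953140-88953439), 9 in Lrrtm4 (chr6:80019393-80019692) and 3 in Cntnap2 (chr6:47244146-47244445). The median over 32851 mouse start regions of the same length was 7, and Nrxn3, Lrrtm4 and Cntnap2 each had starts on both sides of it. RefSeq's table had 11 start regions for 6 of the 8 genes. The letters CAGCACC, one side of the RE1 element bound by the repressor REST, occurred in the second Nlgn1 region (chr3:26153937-26154236) and in 7.14% of all regions, and the other side, GGACAGC, occurred in no member's region and in 6.56% of all. The cAMP response element TGACGTCA (1.79% of all regions) and the palindromic NRF1 site (0.971%) were in no member's region. The TATA box letters TATAAA (13.6%) were in the Lrrtm4 region shown, on the other strand. Both strands were searched and no matches of different motifs overlapped. A match is a description of letters and not of binding.

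Nrxn3 separated the sorted types clearly. Its level was 2129.5, 2529.9, 1936 and 2002 CPM in sorted neurons, against 355, 269, 335 and 214 CPM in sorted astrocytes and 175, 147, 253 and 2.496 CPM in sorted oligodendrocytes. Every neuronal library lay above every glial library, and the last oligodendrocyte value is 4 counts in replicate 36. The means were 2149 ± 266 CPM, 293 ± 64.4 CPM and 144 ± 104 CPM (SD, n = 4 each). The log2 fold change was 2.71 (SE 0.67, edgeR adjusted p = 0.00805) for neurons over astrocytes and 3.64 (SE 0.70, edgeR adjusted p = 0.00134) for neurons over oligodendrocytes. Between the glial types the ranges overlapped, at 0.92 (SE 0.64, edgeR adjusted p = 0.405).

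Nrxn2 was spread more evenly, and 1 library carried much of its neuronal level. It stood at 1211, 356, 337 and 294 CPM in sorted neurons, 247, 137, 194 and 352 CPM in sorted astrocytes and 175, 139, 163 and 32.4 CPM in sorted oligodendrocytes. Sorted neuron replicate 2 was more than 3 times as high as the next neuronal library, and the neuronal and astrocyte ranges overlapped. Neurons exceeded oligodendrocytes by 1.84 (SE 0.55, edgeR adjusted p = 0.0222), but without sorted neuron replicate 2 the difference was 1.06 (edgeR adjusted p = 0.131) and was no longer called. Neurons against astrocytes gave 1.08 (SE 0.54, edgeR adjusted p = 0.1995), which was not called. Per kb of annotated exon, Nrxn3 made up 82.2 ± 10.98% of the summed CPM of Nrxn2 and Nrxn3 in sorted neurons. Its share was 58.7 ± 12.8% in sorted astrocytes and 44.2 ± 24.7% in sorted oligodendrocytes (SD, n = 4 each), or 56.3% in the last without replicate 36.

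The neuroligins were not confined to neurons, and Nlgn3 had its highest mean in astrocytes. Nlgn1 was at 176, 341, 439 and 334 CPM in sorted neurons, 186, 292, 171 and 205 CPM in sorted astrocytes and 56.9, 35.3, 79.3 and 6.24 CPM in sorted oligodendrocytes. Neurons and astrocytes overlapped, and every oligodendrocyte library lay below both. Neurons and astrocytes each exceeded oligodendrocytes, by 2.56 (SE 0.52, edgeR adjusted p = 0.00212) and by 2.16 (SE 0.52, edgeR adjusted p = 0.00698) on the log2 scale. The difference between neurons and astrocytes was 0.40 (SE 0.49, edgeR adjusted p = 0.679), with a 95% interval of −0.57 to 1.37 from its SE, which leaves room for a change in either direction. In the annotation Nlgn1 shares exonic sequence with the antisense gene A830092H15Rik, whose 574 counts over all libraries are few beside those of Nlgn1. The antisense gene was at 20.6 to 69.7 CPM in sorted neurons, and at most 7.44 CPM in sorted astrocytes and 5.46 CPM in sorted oligodendrocytes. Its log2 fold change was 4.24 for neurons over astrocytes (edgeR adjusted p = 0.00257) and 3.47 for neurons over oligodendrocytes (edgeR adjusted p = 0.00409). Since the kit keeps no strand, reads in the shared sequence cannot be assigned to one of the pair, and their part in the Nlgn1 levels was not tested.

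Nlgn3 was the one member whose mean was highest in sorted astrocytes. Its levels were 582, 407, 387 and 386 CPM in sorted neurons, 515, 684, 588 and 721 CPM in sorted astrocytes and 150.0, 208, 202 and 98.6 CPM in sorted oligodendrocytes. Oligodendrocyte libraries lay below all others, and 1 neuronal library, replicate 2, reached into the astrocyte range. Astrocytes exceeded oligodendrocytes by 1.73 (SE 0.33, edgeR adjusted p = 0.00113). Neurons against astrocytes gave −0.67 (SE 0.32, edgeR adjusted p = 0.176), not called, and without sorted oligodendrocyte replicate 36 the same contrast gave −0.67 (edgeR adjusted p = 0.0448). Neurons exceeded oligodendrocytes by 1.06 (SE 0.32, edgeR adjusted p = 0.0242); this call was lost without sorted neuron replicate 2, at 0.88 (edgeR adjusted p = 0.0777), and without sorted oligodendrocyte replicate 10 or 12. Sorted astrocytes also held 2041 to 2878 CPM of 5 oligodendrocyte precursor markers, against 71.4 to 105 CPM in sorted neurons and 111 to 179.9 CPM in sorted oligodendrocytes. The 5 ependymal and choroid plexus markers were higher still in 3 of the 4 astrocyte libraries, at 509, 4730, 6981 and 6190 CPM in sorted astrocytes, against 44.0 to 94.6 CPM in sorted neurons and 44.9 to 165 CPM in sorted oligodendrocytes; presort nuclei of the astrocyte line held 277 to 923 CPM. The part of these cells in the astrocyte levels of the 8 genes was not tested.

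Nlgn2, the neuroligin of inhibitory synapses, showed no difference past the threshold among the sorted types. It had 298, 103, 113 and 60.6 CPM in sorted neurons, 57.1, 32.8, 104 and 125 CPM in sorted astrocytes and 43.6, 76.3, 105 and 8.74 CPM in sorted oligodendrocytes. The ranges of all 3 types overlapped. Neurons over astrocytes came to 0.73 (SE 0.65, edgeR adjusted p = 0.543), neurons over oligodendrocytes to 1.04 (SE 0.64, edgeR adjusted p = 0.274) and astrocytes over oligodendrocytes to 0.32 (SE 0.65, edgeR adjusted p = 0.844). The 95% interval of the first ran from −0.54 to 1.99, so these libraries do not show that the types are alike. Single libraries moved these values: without sorted neuron replicate 2, at 298 CPM the highest of its group, neurons over astrocytes came to 0.07 and neurons over oligodendrocytes to 0.37, and over all libraries left out in turn the ranges were 0.07 to 1.17 and 0.37 to 1.42, none of them called.

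Within the pool of the 3 neuroligins, shares were taken of the summed CPM per kb of annotated exon. Nlgn3 made up 49.5 ± 3.99% in sorted neurons, 69.5 ± 2.55% in sorted astrocytes and 62.1 ± 15.7% in sorted oligodendrocytes (SD, n = 4 each). Over the 3 oligodendrocyte libraries other than replicate 36 its share was 54.7%. Astrocyte libraries ran from 67.3 to 72.9% and neuronal libraries from 44.4 to 54.1%, with no overlap. The share averaged 46.9 ± 2.32%, 49.9 ± 3.48% and 43.5 ± 6.32% in the presort neuron, astrocyte and oligodendrocyte lines (SD, n = 4 each) and 46.0% in the 2 cytoplasm libraries. The scaling uses each gene's annotated exon length, not the lengths of the transcripts present.

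**Figure D1:**
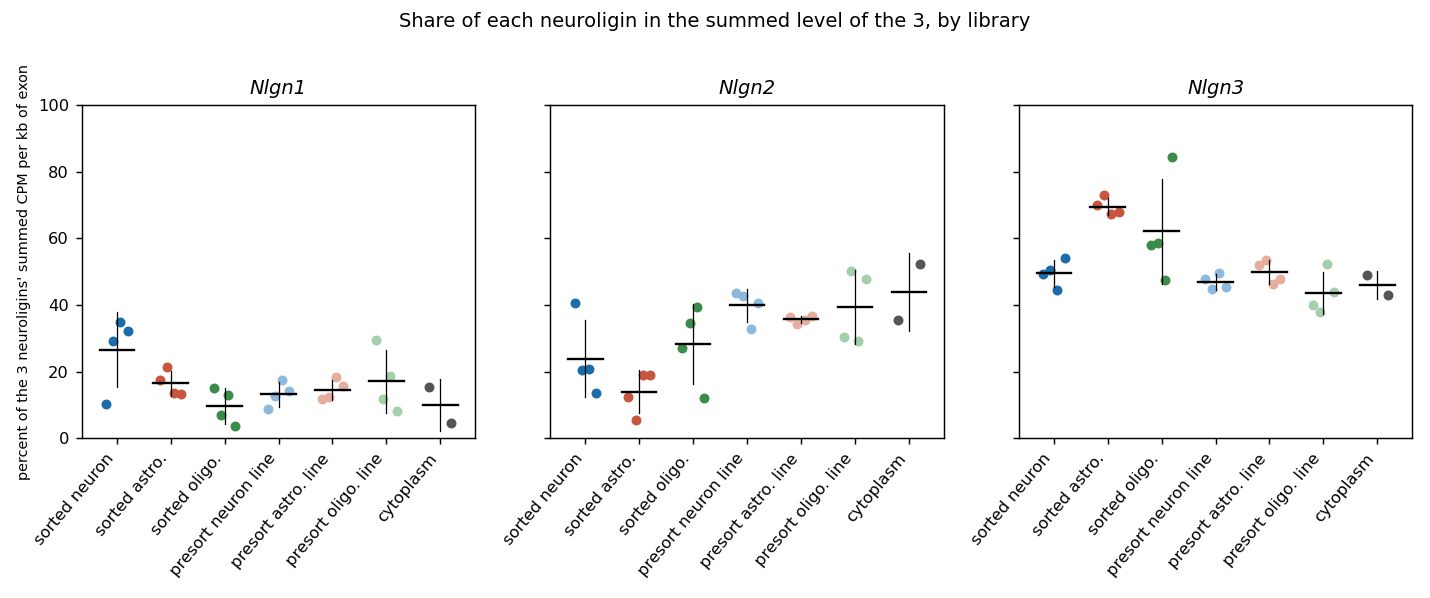
Share of the summed CPM per kb of annotated exon of Nlgn1, Nlgn2 and Nlgn3 (percent, vertical axis) that each neuroligin took in the 7 groups. Points are libraries, with the mean and 1 SD. Nlgn3 took 67.3 to 72.9% in sorted astrocytes and 44.4 to 54.1% in sorted neurons.

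The LRRTM genes had the largest differences of the set between neurons and astrocytes. Lrrtm3 was at 783, 744, 627 and 719 CPM in sorted neurons, 31.1, 37.5, 22.3 and 10.5 CPM in sorted astrocytes and 89.0, 91.5, 70.0 and 187 CPM in sorted oligodendrocytes. The 3 types formed 3 separate ranges, with neurons on top, oligodendrocytes in the middle and astrocytes lowest. Neurons exceeded astrocytes by 4.63 (SE 0.55, edgeR adjusted p = 2.87e-05) and oligodendrocytes by 2.18 (SE 0.49, edgeR adjusted p = 0.00421), or by 2.82 (edgeR adjusted p = 8.95e-06) without oligodendrocyte replicate 36. Astrocytes against oligodendrocytes gave −2.46 (SE 0.51, edgeR adjusted p = 0.00242), a lower level in astrocytes, and −1.79 (edgeR adjusted p = 0.000732) without oligodendrocyte replicate 36, whose 187 CPM was the highest glial value of Lrrtm3.

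Lrrtm4 had 519, 1561, 1269.6 and 1029 CPM in sorted neurons, 18.8, 65.6, 22.3 and 23.8 CPM in sorted astrocytes and 58.6, 63.9, 73.4 and 1.87 CPM in sorted oligodendrocytes. Every neuronal library was above every glial one, while the glial ranges overlapped; 3 counts lie behind the value of astrocyte replicate 30 and of oligodendrocyte replicate 36. The log2 fold changes were 4.83 (SE 0.74, edgeR adjusted p = 0.000210) over astrocytes and 4.17 (SE 0.71, edgeR adjusted p = 0.000500) over oligodendrocytes. Astrocytes and oligodendrocytes gave −0.66 (SE 0.64, edgeR adjusted p = 0.594), not called. Per kb of annotated exon, Lrrtm3 took 73.4 ± 18.0% of the summed CPM of Lrrtm3 and Lrrtm4 in sorted oligodendrocytes (64.7% without replicate 36). It took 53.5 ± 14.2% in sorted astrocytes and 50.3 ± 12.9% in sorted neurons, with overlapping ranges (SD, n = 4 each).

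Lrrtm3 lies within Ctnna3, which encodes an alpha-catenin and runs on the opposite strand; the exons of the genes do not overlap in the annotation. Ctnna3 ran the other way among the sorted types, with 0.754 to 7.06 CPM in sorted neurons, 6.17 to 44.7 CPM in sorted astrocytes and 26.2 to 134 CPM in sorted oligodendrocytes. Its log2 fold change was −2.62 for neurons over astrocytes (edgeR adjusted p = 0.0137), −4.70 for neurons over oligodendrocytes (edgeR adjusted p = 0.000258) and −2.08 for astrocytes over oligodendrocytes (edgeR adjusted p = 0.0420). Oligodendrocyte replicate 36 had the highest Lrrtm3 of its group, 187 CPM, with the lowest Ctnna3, 26.2 CPM. Which regions were counted is not given in the sources used here, strand was not kept, and the part of Ctnna3 reads in the oligodendrocyte level of Lrrtm3 was not tested.

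**Figure D2:**
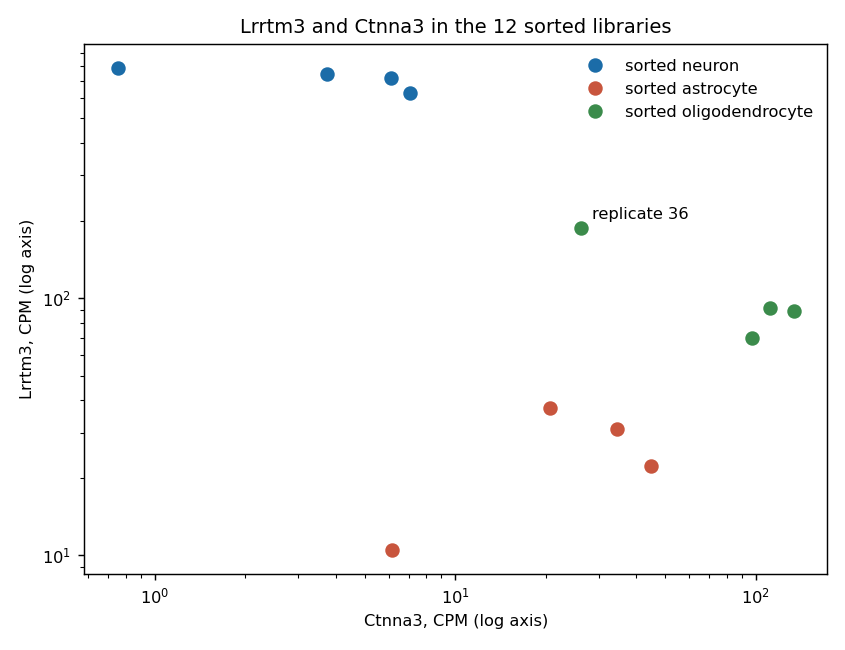
Lrrtm3 (vertical axis) against Ctnna3 (horizontal axis) in each of the 12 sorted libraries, both in CPM on log axes; colours mark the 3 sorted groups. Sorted neurons lie at 627 to 783 CPM of Lrrtm3 with at most 7.06 CPM of Ctnna3, and sorted oligodendrocytes at 70.0 to 187 CPM of Lrrtm3 with 26.2 to 134 CPM of Ctnna3.

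Cntnap2 was the steadiest member in neurons. It had 216, 254, 215 and 214 CPM in sorted neurons, 11.1, 23.8, 29.8 and 12.3 CPM in sorted astrocytes and 13.3, 19.1, 32.4 and 13.1 CPM in sorted oligodendrocytes. The lowest neuronal library was more than 6 times as high as the highest glial one, and the glial ranges overlapped. The log2 fold changes were 3.50 (SE 0.48, edgeR adjusted p = 8.01e-05) over astrocytes and 3.15 (SE 0.46, edgeR adjusted p = 0.000120) over oligodendrocytes, with −0.35 (SE 0.45, edgeR adjusted p = 0.714) between the glial types.

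In total, 4 of the 8 genes were called higher in sorted neurons than in sorted astrocytes (Nrxn3, Lrrtm3, Lrrtm4 and Cntnap2), where 8.02% of all tested genes were called higher, and none was called lower, where 11.4% of all were. The same 4 had ranges that did not overlap, against 20% of all genes. Against oligodendrocytes, 7 of 8 were called higher in neurons, all but Nlgn2, where 10.7% of all genes were called higher, and none lower, where 12.4% were; the 7 also had ranges above those of oligodendrocytes, against 24.7% of all genes. Between astrocytes and oligodendrocytes, Nlgn1 and Nlgn3 were called higher (background 9.62%) and Lrrtm3 lower (7.48%). The median log2 fold change of the 8 genes was 1.90 for neurons over astrocytes and 2.37 for neurons over oligodendrocytes, beside 0.05 and 0.16 over all tested genes. The comparisons share the neuronal libraries, so their calls are not independent. With 2 libraries a group for each sex, the sexes taken alone differed in their calls. In males alone 6 of the 8 were called higher in neurons than in astrocytes (the 4 above with Nrxn2 and Nlgn2) and 7 higher than in oligodendrocytes, and in females alone none of the 8 was called in any of the 3 contrasts. Over all genes 46, 123 and 67 were called in either direction in females, against 3616, 3773 and 3022 in males. The males include sorted neuron replicate 2, the highest neuronal library for Nrxn2 (1211 CPM) and Nlgn2 (298 CPM). The females include oligodendrocyte replicate 36 and the shallow astrocyte replicate 30, and the cause of the difference was not tested.

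**Figure D3:**
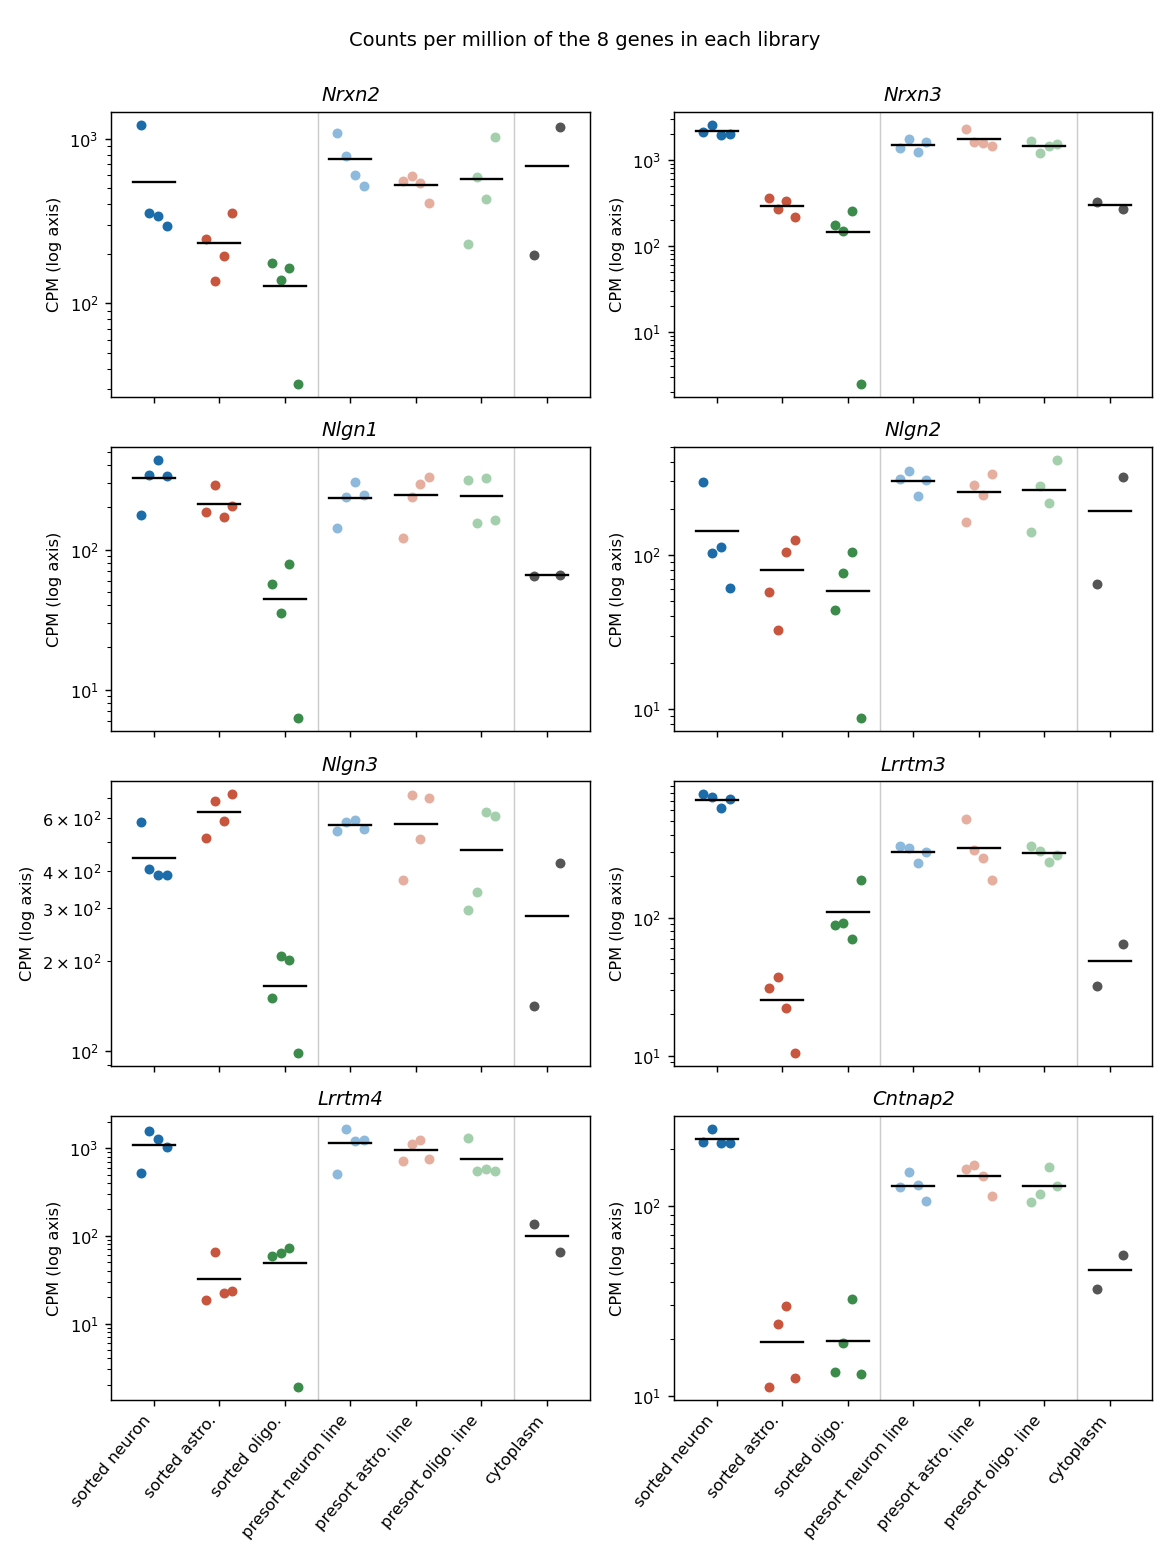
Level of each of the 8 genes in every library, in CPM on a log axis, by group; points are libraries and the line is the group's mean. Nrxn3, Lrrtm3, Lrrtm4 and Cntnap2 in sorted neurons lie above all glial libraries, while Nlgn3 runs from 515 to 721 CPM in sorted astrocytes against 386 to 582 CPM in sorted neurons.

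Levels of different genes were compared per kb of annotated exon. In sorted neurons Lrrtm4 (178 ± 71.8 CPM per kb), Nrxn3 (171 ± 21.1) and Lrrtm3 (169 ± 15.6) formed an upper group, followed by Nlgn3 (47.5 ± 10.2), Nrxn2 (39.8 ± 31.998), Nlgn2 (24.9 ± 18.2), Nlgn1 (24.02 ± 8.10) and Cntnap2 (21.9 ± 1.92; SD, n = 4 each). In sorted astrocytes the order changed: Nlgn3 led at 67.6 ± 10.04 CPM per kb and Cntnap2 was last at 1.88 ± 0.883. Sorted oligodendrocytes were led by Lrrtm3 at 25.7 ± 12.3 CPM per kb, ahead of Nlgn3 at 17.8 ± 5.51 with overlapping ranges, but this order rested on replicate 36: without it Nlgn3 was at 20.1 ± 3.43 and Lrrtm3 at 19.6 ± 2.76 CPM per kb (SD, n = 3 each). If reads from introns were counted, long genes gain from this scale; which regions were counted is not given in the sources used here.

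Presort nuclei are the starting mixture of each sort. Relative to them, Lrrtm3 and Cntnap2 were higher in sorted neurons, 6 of the 8 genes were lower in sorted astrocytes, and 3 of the 8 were called lower in sorted oligodendrocytes. In the neuron line Lrrtm3 was at 783, 744, 627 and 719 CPM after sorting, against 331, 320.0, 249 and 298 CPM before it. Cntnap2 was at 216, 254, 215 and 214 CPM in sorted neurons, against 126, 150.2, 128 and 107 CPM in presort nuclei. Neither gene's ranges overlapped. These were the genes called higher, 2 of 8 where 1.27% of all genes were, with none called lower where 5.1% were, at 1.38 (SE 0.21, edgeR adjusted p = 0.000711) for Lrrtm3 and 0.93 (SE 0.22, edgeR adjusted p = 0.0206) for Cntnap2. The Cntnap2 call was lost when any of 5 single libraries was left out, at edgeR adjusted p values of 0.0521 to 0.0773 (sorted neuron replicates 4, 26 and 28, presort replicates 25 and 27). Nrxn3 also had sorted values (1936 to 2529.9 CPM) above all presort values (1224 to 1724 CPM), at 0.64 (SE 0.19, edgeR adjusted p = 0.0566); ranges were separate in this direction for 3 of the 8 genes and 4.29% of all genes.

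The other 5 genes were not called in the neuron line. Lrrtm4 had 519, 1561, 1269.6 and 1029 CPM in sorted neurons and 501, 1655, 1213 and 1224 CPM in presort nuclei, overlapping ranges, at 0.04 (SE 0.34, edgeR adjusted p = 0.962). Nlgn2 had a mean of 144 ± 106 CPM in sorted neurons and 302 ± 44.5 CPM in presort nuclei (SD, n = 4 each), at −0.94 (SE 0.39, edgeR adjusted p = 0.197). Sorted neuron replicate 2 decided this: without it Nlgn2 was called lower at −1.68 (edgeR adjusted p = 0.000789), and so was Nrxn2 at −1.17 (edgeR adjusted p = 0.00683). Markers of cerebellar granule cells summed to 4672 to 8459.6 CPM in sorted neurons, against 3366 to 4768 CPM in presort nuclei of that line, and their part in these differences was not tested. The median over the 8 genes was 0.31 on the log2 scale, beside 0.07 over all genes. With a replicate block that pairs each presort library with the sorted library of the next number, of the same line and sex, edgeR also called Nrxn3 (0.65, adjusted p = 0.00552) and Nlgn1 (0.57, adjusted p = 0.0376) higher and Nlgn2 lower (−1.18, adjusted p = 0.0153), where 1450 of all genes were called, against 702 without the block.

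In the astrocyte line 6 of the 8 genes were called lower after sorting, where 15.4% of all genes were, and none higher, where 13.7% were. The same 6 had ranges below those of presort nuclei, against 18.6% of all genes. Lrrtm4 fell to 18.8 to 65.6 CPM in sorted astrocytes, against 710.3 to 1239 CPM in presort nuclei, at −4.56 (SE 0.39, edgeR adjusted p = 7.62e-08). Lrrtm3 changed by −3.36 (SE 0.39, edgeR adjusted p = 1.83e-06), Cntnap2 by −2.87 (SE 0.35, edgeR adjusted p = 2.79e-06) and Nrxn3 by −2.34 (SE 0.26, edgeR adjusted p = 7.74e-07). Nlgn2 fell to 32.8 to 125 CPM, against 162 to 336 CPM, at −1.53 (SE 0.37, edgeR adjusted p = 0.00307), and Nrxn2 changed by −0.92 (SE 0.29, edgeR adjusted p = 0.0194); the Nrxn2 call was lost without sorted astrocyte replicate 8 or 30 or presort replicate 7. The 2 exceptions were Nlgn1, at 186, 292, 171 and 205 CPM in sorted astrocytes and 122, 238, 293 and 331 CPM in presort nuclei, and Nlgn3, at 372, 719.6, 510.3 and 700.4 CPM in presort nuclei of the line. Nlgn1 differed by 0.00 (SE 0.30, edgeR adjusted p = 0.996) with a 95% interval of −0.58 to 0.59, and Nlgn3 by 0.34 (SE 0.26, edgeR adjusted p = 0.377). The pan-neuronal markers summed to 1476 to 2399.8 CPM in sorted astrocytes, against 3423 to 4211 CPM in presort nuclei of the line, and their part in these differences was not tested.

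In the oligodendrocyte line all 8 genes had every sorted library below every presort library in CPM without TMM factors, against 19.7% of all genes. In this fit sorted replicate 36 had a TMM factor of 0.515, and the presort libraries had 1.18 to 1.27. With these factors, the separation does not hold for Lrrtm3, which lies above the presort libraries in replicate 36. Lrrtm4 was at 58.6, 63.9, 73.4 and 1.87 CPM in sorted oligodendrocytes, against 1304, 543, 575 and 555 CPM in presort nuclei. Nrxn3 was at 175, 147, 253 and 2.496 CPM in sorted oligodendrocytes, against 1658, 1212, 1452 and 1520.2 CPM in presort nuclei. Only 3 of the 8 were called lower, where 3.24% of all genes were, and none higher, where 5.12% were: Lrrtm4 at −3.58 (SE 0.75, edgeR adjusted p = 0.0150), Cntnap2 at −2.19 (SE 0.51, edgeR adjusted p = 0.0241) and Nrxn3 at −3.02 (SE 0.79, edgeR adjusted p = 0.0382). This count depended on single libraries and on the scaling, and so did the calls over all genes. The shares of 3.24% and 5.12% belong to the main fit and not to the fits that follow. Without sorted oligodendrocyte replicate 36 all 8 genes were called lower, from −0.98 (edgeR adjusted p = 0.0296) for Nlgn3 to −3.18 (edgeR adjusted p = 3.19e-05) for Lrrtm4, while without a presort library it was 0 (replicate 9) or 1 (replicates 11, 33 and 35). With all libraries, RLE size factors gave 5 genes, DESeq2 6 and the replicate block of consecutive numbers 1, Lrrtm4. Lrrtm3, which had the mildest change with all libraries at −0.65 (SE 0.55, edgeR adjusted p = 0.560), was at −1.47 (edgeR adjusted p = 0.00112) without replicate 36. The pan-neuronal markers summed to 499.8 to 2161 CPM in sorted oligodendrocytes, against 3183 to 5109 CPM in presort nuclei of the line, and their part in these differences was not tested.

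Whether the effect of sorting differed among the lines was tested directly, over 24 nuclear libraries. It differed for 5 of the 8 genes, where 24.5% of all genes passed: Cntnap2 (edgeR adjusted p = 1.31e-06), Lrrtm3 (4.59e-06), Lrrtm4 (6.71e-05), Nrxn3 (0.000315) and Nlgn1 (0.00400). For Nlgn3 (0.0582), Nrxn2 (0.258) and Nlgn2 (0.679) it did not pass, although Nlgn3 did with RLE size factors (edgeR adjusted p = 0.0331) and in DESeq2 (adjusted p = 0.00806), and when any of 16 single libraries was left out. Before the sort, the 3 lines gave no called gene among 6049 tested in edgeR, a background of 0%, with 201 at an unadjusted p under 0.05, and DESeq2 called 4, none of them a member.

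**Figure D4:**
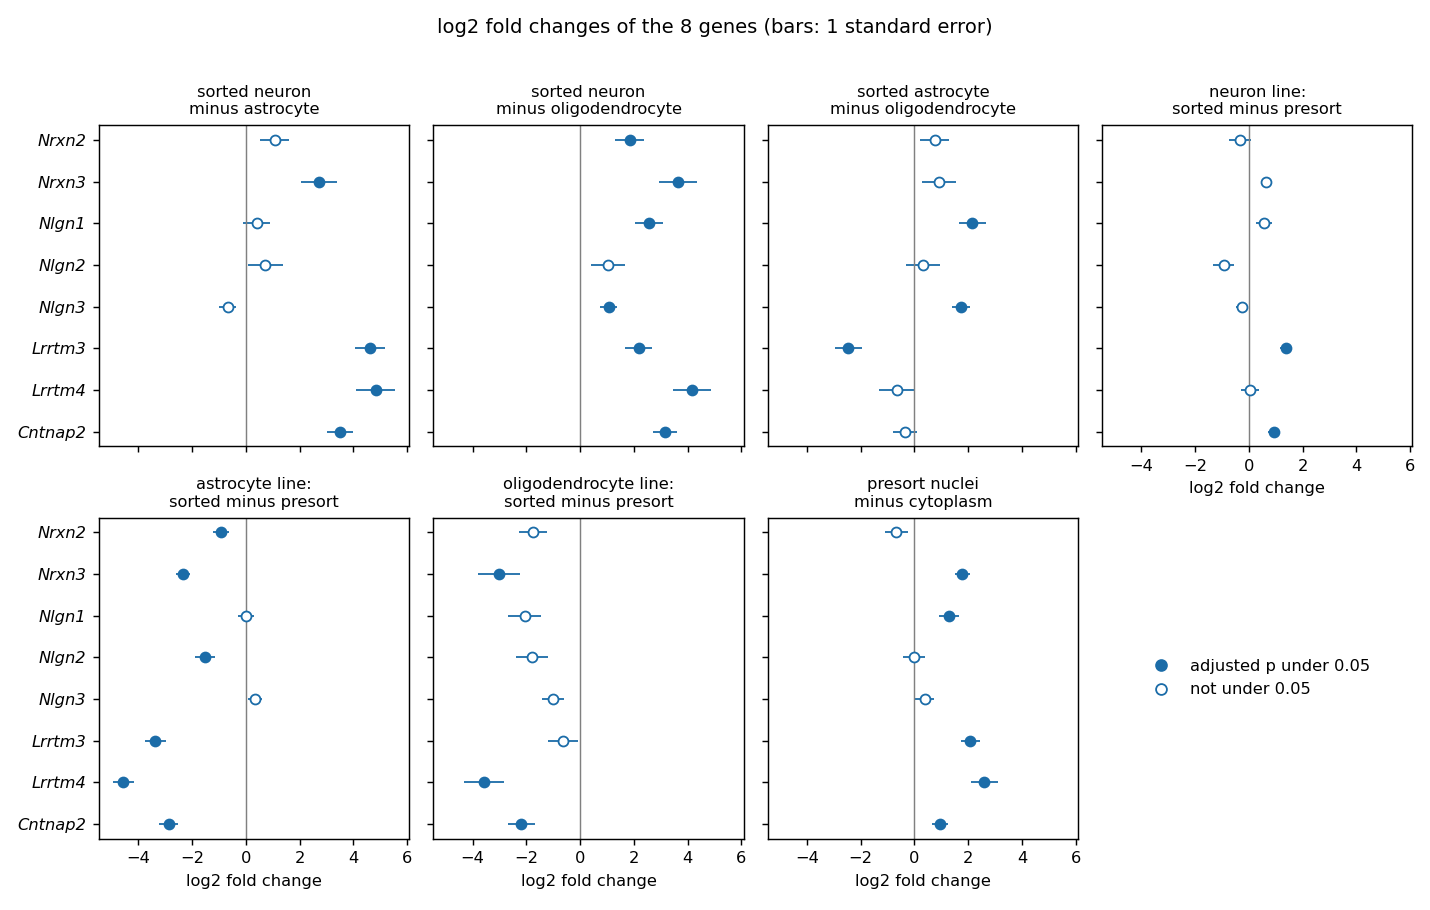
Log2 fold change of each gene with 1 SE either side in the sorted contrasts, in sorted over presort nuclei of each line, and in presort nuclei over cytoplasm; filled points passed an edgeR adjusted p of 0.05. In the astrocyte line Nlgn3 and Nlgn1 are at 0.34 and 0.00, where Lrrtm4 is at −4.56.

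Against whole-brain cytoplasm, 5 of the 8 genes were higher in presort nuclei, where 20.1% of all genes were called higher and 30.2% lower. Lrrtm4 ranged from 501 to 1655 CPM over the 12 presort libraries, against 135 and 65.1 CPM in cytoplasm, and led at 2.60 (SE 0.50, edgeR adjusted p = 0.000222). Lrrtm3 came to 2.08 (SE 0.36, edgeR adjusted p = 6.09e-05), Nrxn3 to 1.78 (SE 0.29, edgeR adjusted p = 3.49e-05), Nlgn1 to 1.28 (SE 0.38, edgeR adjusted p = 0.00790) and Cntnap2 to 0.95 (SE 0.29, edgeR adjusted p = 0.00971). All 5 had every nuclear library above both cytoplasm libraries, against 22.3% of all genes. These 5 are the genes with the 5 widest spans, from 162 to 2245 kb, and the 3 genes that were not called have the 3 shortest, from 14.7 to 125 kb. The part of span in this split was not tested, and the results for the 3 shortest depended on single cytoplasm libraries.

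For those 3 genes the cytoplasm libraries disagreed. Nrxn2 was at 197 and 1175 CPM, Nlgn2 at 64.3 and 321 CPM and Nlgn3 at 141 and 425 CPM in cytoplasm replicates 1 and 2. Nrxn2 gave −0.68 (SE 0.43, edgeR adjusted p = 0.2001) over both, −1.34 (edgeR adjusted p = 0.0108) without replicate 1 and 0.94 (edgeR adjusted p = 0.1303) without replicate 2. Nlgn2 gave −0.02 (SE 0.39, edgeR adjusted p = 0.974), and 1.40 (edgeR adjusted p = 0.0108) without replicate 2, while Nlgn3 gave 0.38 (SE 0.34, edgeR adjusted p = 0.376), and 1.23 (edgeR adjusted p = 0.0153) without it. The replicates differ in sex and line, which cannot be told apart. They also differ in marker content: replicates 1 and 2 held 17305 and 6688 CPM of pan-neuronal markers and 172 and 1462 CPM of ependymal and choroid plexus markers, whose part in the disagreement was not tested. Among the intracellular scaffolds of neurexins and neuroligins, 13 of 20 were lower in nuclei and none higher, where 30.2% and 20.1% of all genes were. The lower ones included Shank1 (175 against 1191 CPM, log2 fold change −3.30, edgeR adjusted p = 2.54e-06). Dlg4, which encodes PSD-95, was also lower (160.4 against 889 CPM, log2 fold change −3.02, edgeR adjusted p = 7.32e-08). The 2 cytoplasm libraries spread widely for both, with an SD of 1182.5 CPM for Shank1 and 488 CPM for Dlg4.

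The wider pathway was read from 4 lists with 92 genes. Of 21 ligands and modulators of neurexins, 18 were tested among sorted nuclei, and in neurons 9 exceeded and 2 were below their astrocyte level, against backgrounds of 8.02% and 11.4% of all genes. The cerebellin Cbln1, which links neurexins to a glutamate receptor across the cleft, led (1904 against 35.7 CPM, log2 fold change 5.48, edgeR adjusted p = 4.16e-05). The 2 lower ones were Dag1, which encodes dystroglycan (239.7 against 1239 CPM, log2 fold change −2.53, edgeR adjusted p = 0.00238), and Mdga2, a neuroligin-binding protein that hinders neurexin contact (122 against 282 CPM, log2 fold change −1.40, edgeR adjusted p = 0.0149). The count of higher ligands was 3 without astrocyte replicate 32, 4 or 5 without another astrocyte library or neuron replicate 4, 26 or 28, and 10 without oligodendrocyte replicate 36, and Mdga2 lost its call when any 1 of 4 libraries was left out, at edgeR adjusted p values of 0.0507 to 0.0682. Against oligodendrocytes 7 were higher and none lower, where 10.7% and 12.4% of all genes were; 13 were higher without oligodendrocyte replicate 36. Of the 20 scaffolds, 4 were higher in neurons than in astrocytes and none lower, led by Lin7a (129 against 7.80 CPM, log2 fold change 3.61, edgeR adjusted p = 0.00123), while 10 were higher without oligodendrocyte replicate 36 and 2 without astrocyte replicate 32.

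Among 15 relatives and partners of Caspr2, 14 were higher in neurons than in astrocytes and none lower, where 8.02% and 11.4% of all genes were. The contactin Cntn6 led (264 against 9.05 CPM, log2 fold change 5.28, edgeR adjusted p = 9.20e-05). Against oligodendrocytes 10 were higher in neurons and 3 lower, where 10.7% and 12.4% of all genes were. The lower ones were Cntn2, a contactin that pairs with Caspr2 beside nodes (265 against 1215 CPM, log2 fold change −2.57, edgeR adjusted p = 0.000262), Epb41l3, a membrane-cytoskeleton linker of the same complex (80.2 against 329 CPM, log2 fold change −2.62, edgeR adjusted p = 0.00720), and the potassium channel gene Kcna1 (461 against 843 CPM, log2 fold change −1.23, edgeR adjusted p = 0.0109). The Kcna1 call was lost without sorted neuron replicate 4 (edgeR adjusted p = 0.0560). Cntnap2 itself was higher in neurons than in oligodendrocytes, so it and these 3 partners differed in opposite directions in the same contrast. Of 36 other synaptic organizers, 35 were tested; in neurons 16 exceeded and 2 were below their astrocyte level, and 20 exceeded and 2 were below their oligodendrocyte level, beside the same background shares. With any 1 library left out the counts were 11 to 17 higher and 1 to 5 lower against astrocytes, the 5 without oligodendrocyte replicate 36, and 16 to 26 higher and 2 or 3 lower against oligodendrocytes. Ptprd, a receptor phosphatase that organizes synapses, was among those lower in neurons than in oligodendrocytes (2441 against 12177 CPM, log2 fold change −2.77, edgeR adjusted p = 3.41e-06), and Slitrk2 was among those lower than in astrocytes (258 against 999.8 CPM, log2 fold change −2.12, edgeR adjusted p = 0.0382), a call that was lost when any 1 of 7 libraries was left out.

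The genes most like each member were ranked by Pearson's r of log2 CPM over the 12 sorted libraries, among 9383 genes with a mean of at least 10 CPM. The libraries come from 3 cell types, which all genes share, so these values are a description without a test. The closest gene was Usp28 for Nrxn3 (r = 0.99), Stxbp5l for Lrrtm4 (0.99), Gabra6, a marker of cerebellar granule cells, for Cntnap2 (0.99), Brinp3 for Nlgn1 (0.98), Grina for Nlgn3 (0.97), Akap6 for Lrrtm3 (0.97), Tecpr1 for Nrxn2 (0.95) and Trp53i11 for Nlgn2 (0.93). Without oligodendrocyte replicate 36, none of these 8 genes stayed first: Stxbp5l ranked 2 and Akap6, the lowest, ranked 13. Among the members, Nrxn2 and Nlgn2 went together at r = 0.87 (0.78 without oligodendrocyte replicate 36). Both had their highest sorted value in sorted neuron replicate 2 (1211 and 298 CPM), and r without that library was not computed. Oligodendrocyte replicate 36 moved other pairs more. Lrrtm3 and Lrrtm4 were at 0.68 with it and 0.95 over the 11 libraries without it. Nlgn1 and Nlgn2 were at 0.49 with it and −0.02 without it. Nlgn3 and Lrrtm3 had a negative value both ways, −0.34 and −0.29. Among the 12 presort libraries none of the 28 pairs passed a permutation test after adjustment (lowest Benjamini-Hochberg adjusted p = 0.157).

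Between female and male sorted nuclei, with cell type in the model, edgeR called none of the 8 genes, where it called 0.0461% of all 13029 genes tested, and 629 genes had an unadjusted p under 0.05. DESeq2 called 54 genes, none of them among the 8. Nlgn3, which lies on the X chromosome, gave −0.13 (SE 0.25, edgeR adjusted p = 0.923), female over male. The median log2 fold change of the 8 genes, female over male, was −0.12, beside −0.17 over all genes. Sex coincides with the block of replicate numbers, so the contrast compares both at once.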

How the data were processed

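RNA of 12 sorted nuclear, 12 presort nuclear and 2 cytoplasm libraries was amplified with the Ovation RNA-seq V2 kit of NuGEN after Trizol extraction, DNase and Qiagen MinElute columns, per the labels' protocols. The kit keeps no strand and has no molecular identifiers, so a count is a read and floors cover counting error only. The authors deposited raw counts for each gene and library in 1 table, as whole numbers without normalization. Trimmomatic, Bowtie2, STAR, bedtools and edgeR are named in the submitters' processing notes, without versions. Not given in the sources used here are the genome build, the annotation, the counted regions, the strand setting and the method of sorting.

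Groups, sex and replicate numbers came from titles and characteristics. Each library came from 1 mouse, and presort nuclei came from each mouse that was sorted, per the design text, without naming the pairs. Main fits are unpaired. As a check, sorted libraries were paired with the presort library of the preceding number, of the same line and sex: the deviations from the group means correlated across genes at 0.23 to 0.36 in the 4 neuron pairs, 0.0618 to 0.16 in the astrocyte pairs and −0.00942 to 0.16 in the oligodendrocyte pairs. Only the neuron line reached a minimum of 0.1 in every pair, and that minimum cannot settle the pairs. The highest correlation with another presort library of the neuron line was 0.148, 0.0647, 0.161 and 0.233 for sorted replicates 2, 4, 26 and 28. Sorted replicate 28 was at 0.231 with presort replicate 27 and at 0.233 with presort replicate 25. The cell type label of the cytoplasm libraries was not used. A row named GFP was part of the library totals and was not removed before the tests. Symbols were matched for 26495 of 27501 identifiers in GENCODE M21 (GRCm38). No replicates were copies (chi-square per degree of freedom of at least 1.97).

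Counts were tested two-sided in edgeR 4.0.16 (R 4.3.3) by its quasi-likelihood test after TMM normalization, with filterByExpr at a minimum count of 10 and Benjamini-Hochberg adjustment over all genes tested, at a threshold of 0.05. Sorted contrasts came from 1 fit of 12 libraries, and sorted over presort contrasts from fits of 8 libraries in each line. CPM in the text is per total count, without TMM factors. DESeq2 1.42.0 was an alternative. The edgeR and DESeq2 scripts were tested on simulated data. Permutation tests of correlations used 100000 resamples in scipy 1.17.1. Named genes of the pathway lists were up to 3 per list, comparison and direction, by fold change among those called with a mean of at least 10 CPM in the higher group. The members and lists were chosen with earlier results of these data known. The alternatives were another normalization, test, filter, choice of libraries in the fit, sex as a covariate, either sex alone and leaving out each library. A replicate block of these pairs, and correlations, shares and means without oligodendrocyte replicate 36, were added after seeing the data.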

Additional observations from a re-analysis of the deposited data

Results flagged for a closer look

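Of 48 sets of 4 libraries (8 genes in 6 nuclear groups), 5 had 1 value far from the other 3 by Dixon's criterion for 4 values, and chance flags about 1 in 20 groups. Sorted neuron replicate 2 was high for Nrxn2, at 1211 CPM with the next library at 356 CPM, and for Nlgn3, at 582 CPM with the next at 407 CPM. Sorted neuron replicate 4 was high for Cntnap2, at 254 CPM with the next at 216 CPM. Sorted astrocyte replicate 8 was high for Lrrtm4, at 65.6 CPM with the next at 23.8 CPM. Presort oligodendrocyte line replicate 9 was high for Lrrtm4, at 1304 CPM with the next at 575 CPM.

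The change from presort to sorted nuclei differed among the 3 lines for 5 genes by the joint edgeR test, with adjusted p = 1.31e-06 for Cntnap2, 4.59e-06 for Lrrtm3, 6.71e-05 for Lrrtm4, 0.000315 for Nrxn3 and 0.00400 for Nlgn1. Cntnap2 was called higher after sorting in the neuron line and lower in both glial lines. Lrrtm3 was called higher in the neuron line and lower in the astrocyte line, at a log2 fold change of −0.65 without a call in the oligodendrocyte line. Nlgn1 was at 0.58 in the neuron line, 0.00 in the astrocyte line and −2.07 in the oligodendrocyte line, none of them called in the main fits. It was called higher in the neuron line with the replicate block. In the oligodendrocyte line it was called lower without sorted oligodendrocyte replicate 36, and not with the block.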

How the results depend on the processing

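Most calls on the 8 genes kept their direction and side of the threshold, and the exceptions follow; where no value shows the cause, the cause was not tested. In females alone no gene of the 8 was called higher or lower in the 3 sorted contrasts, and 46, 123 and 67 of all genes were called in neurons over astrocytes, neurons over oligodendrocytes and astrocytes over oligodendrocytes; males alone, with as many libraries, gave 3616, 3773 and 3022. Fits of only the groups compared called 4537 genes for neurons over astrocytes and 1944 for neurons over oligodendrocytes, against 2534 and 3005. In the neuron line, the fit of all 24 nuclear libraries called 1 of the 8 higher, males alone 0, and females alone called 2 lower; over all genes, 1151 were called without a filter, 1166 with sex as a covariate and 127 in males, against 702. In the astrocyte line 2133 genes were called with all 24 libraries and 1533 in males, against 3205. In the oligodendrocyte line the count of the 8 called lower was 3, but 5 with RLE size factors, 6 with DESeq2, 7 with all 24 libraries, 5 in males and 0 in females. Over all genes it was 795, but 1520 with DESeq2, 1216 without a filter, 3066 with all 24 libraries, 2152 in males and 0 in females; RLE shifted the median of all genes there by −0.12. Without a filter, 6815 genes were called between nuclei and cytoplasm, 1 among presort lines (DESeq2 4) and 30 between sexes (DESeq2 54). Leaving out 1 library moved calls over all genes between 1889 and 5096 for neurons over astrocytes, 2324 and 4812 for neurons over oligodendrocytes, 1705 and 3566 for astrocytes over oligodendrocytes, 342 and 1051 in the neuron line, 1833 and 3670 in the astrocyte line, 267 and 2069 in the oligodendrocyte line, and 5 and 49 between sexes. It moved the members called lower between 0 and 1 for neurons over astrocytes, 0 and 2 in the neuron line, 0 and 8 in the oligodendrocyte line, and 0 and 1 for nuclei over cytoplasm, and those called higher in the neuron line between 1 and 2. Among changes of sign, 1 ended in a call, that of Nlgn2 in nuclei over cytoplasm, at 1.40 (edgeR adjusted p = 0.0108) without cytoplasm replicate 2. Neurons over astrocytes gave −0.00294 for Nrxn2 and −0.59 for Nlgn2 in females and −0.0911 for Nlgn1 in males, and astrocytes over oligodendrocytes gave −0.54 for Nlgn2 in males. Nlgn1 in the astrocyte line was at −0.51 in females, and Nlgn2 in nuclei over cytoplasm at 0.11 with sex as a covariate. Lrrtm3 between sexes was at 0.0186 with RLE size factors and 0.0139 in DESeq2. Aldh1l1 was at 0.0781 for neurons over oligodendrocytes in males, 0.00505 in the oligodendrocyte line in females and 0.36 over cytoplasm with presort libraries of the astrocyte and oligodendrocyte lines only. Leaving out 1 library gave ranges across 0 for Nlgn2 in astrocytes over oligodendrocytes (−0.11 to 0.69), Nrxn2 (−1.17 to 0.0209) and Lrrtm4 (−0.22 to 0.33) in the neuron line, and Nlgn1 in the astrocyte line (−0.20 to 0.22). For nuclei over cytoplasm they were −1.34 to 0.94 for Nrxn2, −0.63 to 1.40 for Nlgn2, −0.0671 to 1.23 for Nlgn3 and −0.13 to 0.17 for Aldh1l1. Between sexes they were −0.34 to 0.26 for Nlgn1, −0.50 to 0.37 for Nlgn2, −0.62 to 0.18 for Lrrtm3 and −0.00574 to 0.32 for Cntnap2. Between neurons and astrocytes a depth of 134357 counts in astrocyte replicate 30 limits levels near its floor of 22.3 CPM. A replicate block that pairs presort and sorted libraries of consecutive numbers was added after seeing the data. With it, the neuron line had 4 of the 8 called higher and 1 lower and 1450 genes called in all. The astrocyte line kept its count of 6 lower, and the difference among lines its count of 5. In the oligodendrocyte line, where not every pair reached a correlation of 0.1, 1 of the 8 was called lower and 281 of all genes were.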
